A study of Homo sapiens with 4 samples.

Results

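The ABC transporters were followed through *SOX2* knockdown in LN229, an established glioblastoma cell line of human origin. The members were the genes whose symbol on the array begins with ABC, a subfamily letter from A to G and a number, which gave 47 genes, read by 57 of the 33096 gene probes. Of these genes, 31 lay above background and entered the comparison, among 18934 of 28568 gene features on the array. Total RNA of each sample was labelled with biotin and hybridised to a 1-colour oligonucleotide array (Applied Biosystems Human Genome Survey) read by chemiluminescence. The *SOX2* knockdown group held 2 samples transfected with siRNA against *SOX2*, which encodes an HMG-box transcription factor of stem cells. The mock knockdown group held 2 samples given a control siRNA without a target. Both groups were LN229 cells grown in DMEM, and the study's methods describe transient transfection with a pair of *SOX2* siRNAs and separate transfections for the replicates, and all samples come from 1 cell line.

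ABC transporters are membrane proteins that bind and hydrolyse ATP through a pair of conserved nucleotide-binding folds and use the energy to move a substrate across a lipid bilayer. Subfamily A mostly moves lipids and sterols, subfamilies B, C and G include the pumps known for drug efflux in tumour cells and at the blood-brain barrier, subfamily D serves peroxisomes and lysosomes, and the members of E and F lack membrane-spanning parts and act on ribosomes. In glioma the family is best known through *ABCB1*, *ABCC1* and *ABCG2*, which are studied as a source of drug resistance and, for *ABCG2*, as a basis of the dye efflux that marks side-population cells.

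In LN229 cells the ABC genes above background with the lowest ratios after *SOX2* knockdown belonged to subfamily A. *ABCA2*, *ABCA5*, *ABCA6*, *ABCA7* and *ABCA8* had signals 1.45-fold to 1.91-fold lower, and on each of them neither knockdown sample reached the lower mock sample. The drug efflux pumps *ABCC1* and *ABCG2* differed by 1.11-fold or less, though *ABCG2* was 2.12-fold higher when the raw reading was corrected with normexp, and *ABCB1* was near background. *ABCA12* was the only ABC gene over 2-fold, and its mock signals were not above background. No ABC gene passed an adjusted p of 0.05 in limma. Signals are given throughout as multiples of the 75th percentile of the array, on a linear scale, and ratios and log2 changes are *SOX2* knockdown over or minus mock knockdown. In bulk RNA of this kind, fewer cells of a type and less RNA per cell cannot be told apart.

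The target gene and the cell line were checked first. *SOX2* had scaled signals of 0.450 and 0.674 in the mock samples against 0.202 and 0.144 in the *SOX2* knockdown samples, a log2 change of -1.69 (SE 0.28, limma adjusted p = 0.111). One label, the treatment protocol, names the colon line SW620, and all the others name LN229. Of 10 markers of glial or mesenchymal glioma lines, 9 had a ratio of signal to noise (S/N) over 3 on all arrays, among them *VIM*, *CD44*, *NES* and *FABP7*, and *CHI3L1* had it on none. Of 9 markers of colon epithelium, *VIL1* alone passed on all arrays, and *CDH1*, *KRT20* and *CDH17* passed on none. Each group had 2 arrays, and this small number limits how precise the values can be.

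The promoter sequences of the subfamily A genes with lower signals are shown because these genes were lower together, and 3 of them lie close together on chromosome 17. There *ABCA8*, *ABCA9*, *ABCA6*, *ABCA10* and *ABCA5* follow each other with no protein-coding gene between them. RefSeq's promoter table (GRCh38.p14) held 35 of the 47 ABC genes. Of the 5 subfamily A genes with lower signals it held 4, *ABCA2*, *ABCA5*, *ABCA6* and *ABCA7*. The 250 bases upstream of the annotated start are printed 5′ to 3′ on the strand of the gene, with CG dinucleotides in capitals. The windows are chr9:137028923-137029172 on the minus strand for *ABCA2*, chr17:69327134-69327383 on the minus strand for *ABCA5*, chr17:69141896-69142145 on the minus strand for *ABCA6* and chr19:1039857-1040106 on the plus strand for *ABCA7*.
ABCA2: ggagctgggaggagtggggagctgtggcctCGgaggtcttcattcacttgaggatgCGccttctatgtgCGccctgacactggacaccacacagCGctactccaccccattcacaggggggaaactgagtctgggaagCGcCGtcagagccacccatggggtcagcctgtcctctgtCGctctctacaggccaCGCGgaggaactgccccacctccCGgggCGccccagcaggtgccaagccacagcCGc
ABCA5: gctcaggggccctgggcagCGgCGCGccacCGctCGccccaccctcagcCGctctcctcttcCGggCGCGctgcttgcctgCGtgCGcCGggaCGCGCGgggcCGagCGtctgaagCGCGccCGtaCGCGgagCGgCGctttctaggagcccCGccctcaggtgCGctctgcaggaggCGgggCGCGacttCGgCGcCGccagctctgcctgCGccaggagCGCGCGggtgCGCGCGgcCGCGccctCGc
ABCA6: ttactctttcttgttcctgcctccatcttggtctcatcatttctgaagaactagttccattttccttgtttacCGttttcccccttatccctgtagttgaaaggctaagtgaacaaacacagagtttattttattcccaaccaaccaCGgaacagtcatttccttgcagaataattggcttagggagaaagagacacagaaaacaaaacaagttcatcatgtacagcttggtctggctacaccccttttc
ABCA7: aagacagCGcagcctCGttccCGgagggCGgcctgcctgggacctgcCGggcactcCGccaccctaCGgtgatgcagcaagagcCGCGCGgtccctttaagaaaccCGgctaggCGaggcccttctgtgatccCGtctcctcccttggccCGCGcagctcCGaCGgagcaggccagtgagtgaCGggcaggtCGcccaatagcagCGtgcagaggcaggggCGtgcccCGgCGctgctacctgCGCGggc
The 4 windows differed widely in base composition. The *ABCA5* window was 79.2% G and C with 42 CG dinucleotides, and that of its neighbour *ABCA6* was 40.8% G and C with 2. *ABCA2* had 65.2% with 12 and *ABCA7* had 70.4% with 25, where the median over all 27305 promoters of this length was 58% G and C. The letters ATTGT, or ACAAT on the other strand, a short core bound by the HMG box of SOX proteins, were in none of the 4 windows. They were in 25.2% of all promoters of the same length and in 3 of the 35 ABC promoters, those of *ABCA9*, *ABCC11* and *ABCD4*. The search says only which windows hold these letters. The looser *SOX2* consensus that the paper reports for LN229 cells, wwTGnwTw (w for A or T, n for any base), was not counted. It can be read in the printed *ABCA6* window, as aaaacaaa, which fits its other-strand form wAwnCAww. The other windows were not searched for it, and how often promoters in general hold it is not known.

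**Figure D1:**
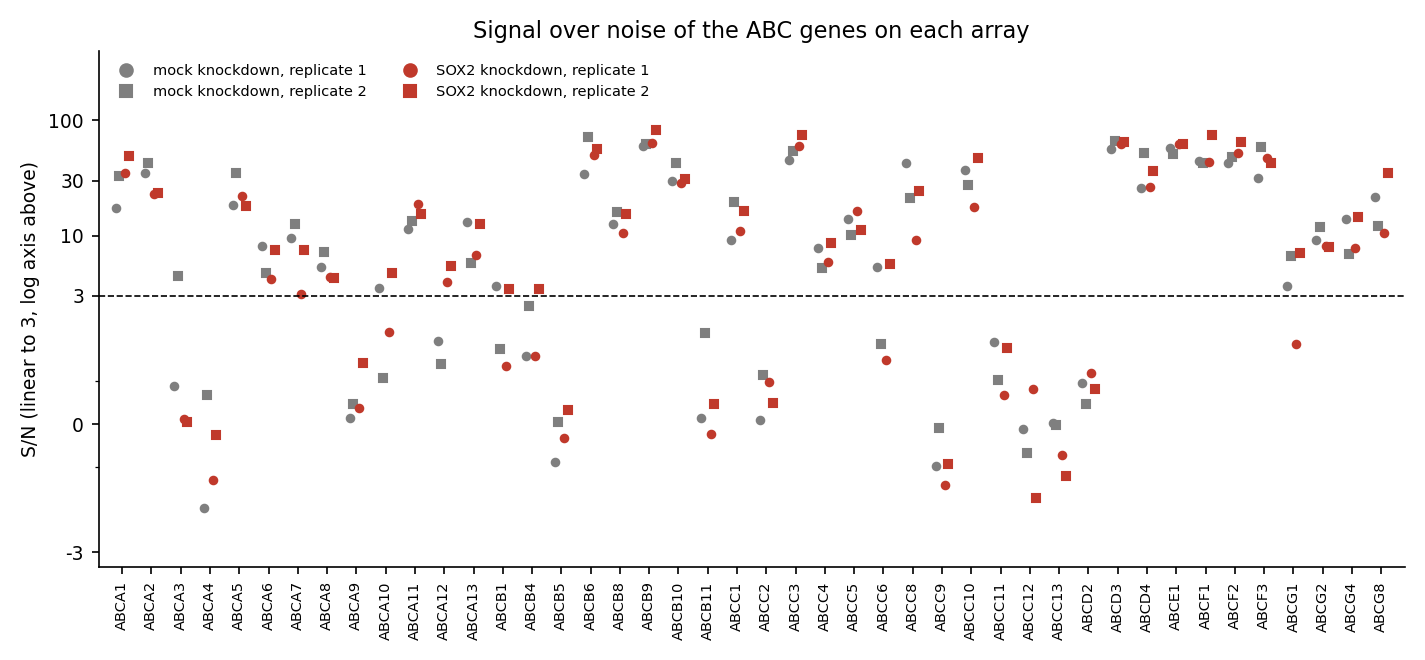
S/N of each ABC gene on each array (y axis, linear to 3 and logarithmic above), for 44 of the 46 genes not removed by a flag, with the dashed line at 3. Of those shown, 27 lay above the line on all arrays, 10 on none, and ABCA12 lay above it on the SOX2 knockdown arrays only.

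Detection set which members could be compared. S/N is the deposited signal over its own error, averaged over the probes of a gene, and a gene was compared where both arrays of 1 group or the other had S/N over 3. Of the 47 genes, 29 passed on all 4 arrays, *ABCG1* passed on 3 and *ABCA12* on both knockdown arrays. On no array did 10 genes pass, namely *ABCA4*, *ABCA9*, *ABCB5*, *ABCB11*, *ABCC2*, *ABCC9*, *ABCC11*, *ABCC12*, *ABCC13* and *ABCD2*. Several of these are known for a specialised tissue, such as *ABCA4* in the retina and the bile salt export pump *ABCB11* in the liver. Another 5 genes, *ABCA3*, *ABCA10*, *ABCB1*, *ABCB4* and *ABCC6*, passed on 1 or 2 arrays without filling a group. *ABCB4*, which exports phosphatidylcholine into bile, was the mean of 2 probes, 1 of them below S/N 3 on all arrays, and its other probe alone passed on both mock arrays and *SOX2* knockdown replicate 2, with a ratio of 0.679. *ABCG5*, a half-transporter for plant sterols, had a single probe, which was left out for a flag on mock replicate 2. *ABCC13* and *ABCA11*, the latter now named *ABCA11P*, are pseudogenes in RefSeq, and the transcript read by an array probe there was not checked.

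Across the 31 genes compared, 17 had a log2 change below 0 (54.8%), against 50.1% of all features kept. The median log2 change was -0.04 over the ABC genes and 0.00 (-0.000441) over all 18934 features. Of the 31 genes, 22 differed by less than 1.2-fold between the group means. The groups did not overlap for 8 genes that were higher after knockdown (25.8%, against 21.4% of all features) and for 6 that were lower (19.4%, against 25.9%), so by this count the family lay near the array as a whole. An unadjusted limma p under 0.05 was reached by 6 genes with lower signals (19.4%, against 9.14% of all features) and by 1 with a higher signal (3.23%, against 8.1%). By the replicate means, 4 genes were over 1.5-fold lower (12.9%, against 4.83%) and 1 was over 1.5-fold higher (3.23%, against 5.06%). That gene, *ABCA12*, was also the only one past 2-fold, where 2.38% of all features lay. It entered the comparison through its knockdown arrays alone, so its place in these counts is not read as evidence of a change. After Benjamini-Hochberg adjustment no ABC gene and 0% of all features had p under 0.05, the smallest adjusted p on the array being 0.0643.

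**Figure D2:**
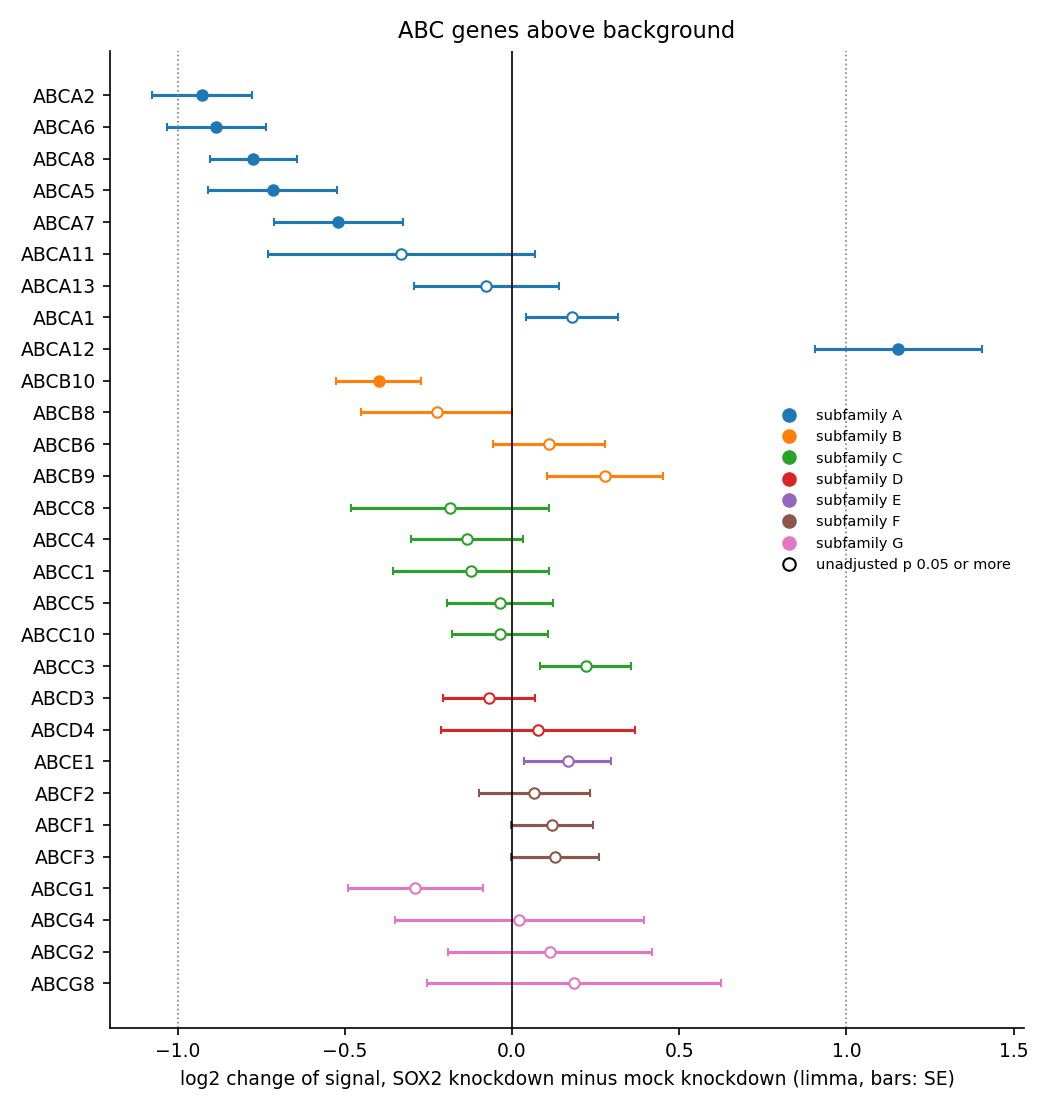
Log2 change of 29 of the 31 ABC genes compared (x axis, SOX2 knockdown minus mock knockdown, points from limma with SE as bars), grouped by subfamily, with filled points where the unadjusted p was under 0.05 and dotted lines at 2-fold. ABCA2, ABCA6, ABCA8, ABCA5 and ABCA7 lie from -0.93 to -0.52, and ABCA12 alone lies past the dotted line, at 1.16.

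Subfamily A held 5 of the 6 genes with lower signals at an unadjusted p under 0.05, which 9.14% of all features reached in that direction. Of its 13 genes with a usable probe, 9 were compared, 7 of them were lower, against 50.1% of all features, and the median log2 change was -0.52. Of the 9 genes compared, 5 were lower with no overlap of the groups, which held for 25.9% of all features. The subfamily was singled out after its values were seen, and its difference from the other subfamilies was not tested.

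*ABCA2*, an endosomal and lysosomal lipid transporter known from oligodendrocytes, showed the lowest ratio of the 31 genes above background. Its scaled signals were 0.391 and 0.471 in the mock samples against 0.229 and 0.223 in the *SOX2* knockdown samples. The knockdown arrays lay close together and well below both mock arrays, at S/N from 23.0 to 42.7. The signal was 1.91-fold lower, with a log2 change of -0.93 (SE 0.15, limma unadjusted p = 0.00248, adjusted p = 0.110). Without mock replicate 1 it was 2.09-fold lower, past the 2-fold cutoff.

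*ABCA5*, *ABCA6* and *ABCA8* belong to the cluster on chromosome 17. *ABCA5*, a lysosomal and late endosomal protein, had signals of 0.280 and 0.379 in the mock samples against 0.192 and 0.205 in the *SOX2* knockdown samples. *ABCA6*, whose expression is known to respond to cholesterol, had 0.111 and 0.119 in the mock samples against 0.0572 and 0.0679 in the *SOX2* knockdown samples. *ABCA8*, linked to sterol efflux and high-density lipoprotein, had 0.124 and 0.138 in the mock samples against 0.0758 and 0.0775 in the *SOX2* knockdown samples. In each of the 3 genes both knockdown signals were below both mock signals, and the mock arrays of *ABCA5* spread more than those of the other two. The ratios were 1.66-fold lower for *ABCA5*, 1.84-fold lower for *ABCA6* and 1.71-fold lower for *ABCA8*. The log2 changes were -0.72 (SE 0.19, limma adjusted p = 0.193), -0.88 (SE 0.15, limma adjusted p = 0.112) and -0.77 (SE 0.13, limma adjusted p = 0.113) in the same order. Without mock replicate 2 *ABCA5* was 1.41-fold lower, under the 1.5-fold cutoff, and its unadjusted limma p was 0.0936 without *SOX2* knockdown replicate 1 and 0.0547 without replicate 2. Without the latter, *ABCA6* was 2.01-fold lower. With normexp on the raw reading, *ABCA5* was 1.85-fold, *ABCA6* 1.52-fold and *ABCA8* 2.01-fold lower. The unadjusted limma p was then 0.0697, 0.0549 and 0.00108 in the same order. *ABCA6* and *ABCA8* were dim, with S/N between 4.24 and 8.16. The genes of the cluster share sequence, and whether a probe for one also reads another was not checked.

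The other members of the cluster gave no comparison. *ABCA9* had S/N from 0.15 to 1.42, so its level is not known on any array. *ABCA10* had a mean S/N over 3 on mock replicate 1 and *SOX2* knockdown replicate 2, with scaled signals of 0.118 and 0.0580 in the mock samples against 0.0987 and 0.110 in the *SOX2* knockdown samples. Its groups overlapped, and the arrays that passed were 1 of each group.

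*ABCA7*, a phospholipid transporter known as a risk gene for Alzheimer's disease, was read by 2 probes. The mean of both was 0.0979 and 0.130 in the mock samples against 0.0737 and 0.0840 in the *SOX2* knockdown samples. The knockdown signals were under both mock signals, though by little against the spread of the mock arrays. The signal was 1.45-fold lower, with a log2 change of -0.52 (SE 0.19, limma unadjusted p = 0.0490, adjusted p = 0.287). Leaving out 1 array moved the ratio between 1.24-fold (without mock replicate 2) and 1.65-fold lower, and the unadjusted p was above 0.05 without any array but mock replicate 1. The brighter probe was 0.158 and 0.204 against 0.127 and 0.128, and the dimmer one had S/N over 3 only on mock replicate 2.

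**Figure D3:**
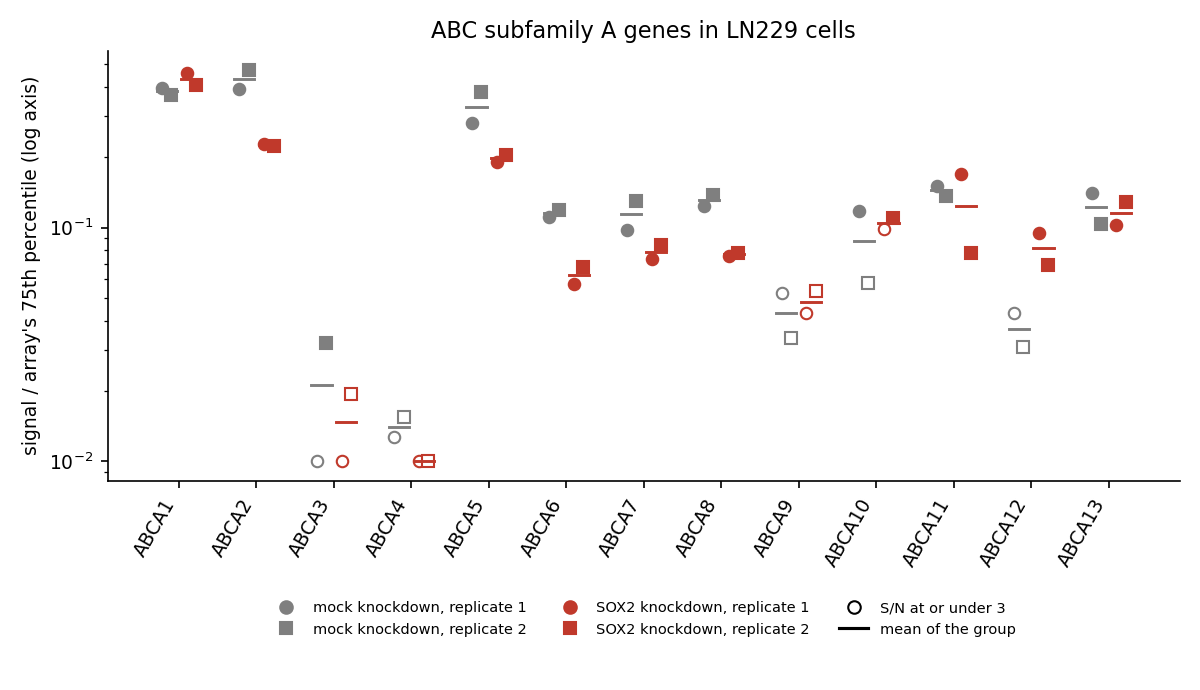
Scaled signal of the 13 subfamily A genes with a usable probe on each array (y axis, logarithmic, relative to the array's 75th percentile), mock knockdown in grey and SOX2 knockdown in red, with bars at the group means and open symbols where S/N was 3 or less. The knockdown arrays lie below the mock arrays for ABCA2, ABCA5, ABCA6, ABCA7 and ABCA8 and above them for ABCA1 and ABCA12. The mock points of ABCA12 are open.

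*ABCA12* and *ABCA1* lay on the other side. *ABCA12*, the keratinocyte lipid transporter whose loss causes harlequin ichthyosis, had scaled signals of 0.0430 and 0.0308 in the mock samples against 0.0944 and 0.0695 in the *SOX2* knockdown samples. The knockdown arrays were above both mock arrays, but S/N was 1.95 and 1.4 on the mock arrays against 3.98 and 5.49 after knockdown. The mock level is therefore not known, and the 2.22-fold ratio of the measured means is no bound. With the mock side set to the signal at which this probe would reach S/N 3, the measured knockdown signal was 1.23-fold higher. That value leaves out the error of the knockdown signals, so it is no lower bound either. In limma the log2 change was 1.16 (SE 0.25, unadjusted p = 0.00777, adjusted p = 0.147). The gene was kept through its knockdown arrays alone, so these p-values are not read as evidence of a change. The ratio of the means was 1.91-fold without mock replicate 2 and 1.88-fold without *SOX2* knockdown replicate 1, both under the 2-fold cutoff, 1.64-fold with a floor of 0.05, and 1.05-fold when the raw reading was corrected with normexp.

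*ABCA1*, which loads cellular cholesterol onto apolipoprotein A-I, had signals of 0.398 and 0.369 in the mock samples against 0.461 and 0.409 in the *SOX2* knockdown samples. The groups did not overlap, yet the gap between them was small. The log2 change was 0.18 (SE 0.14, limma adjusted p = 0.611), with a 95% interval from -0.19 to 0.55. *ABCA13* and *ABCA11P* had log2 changes of -0.08 and -0.33, and in both the groups overlapped. For *ABCA11P* the knockdown arrays read 0.169 and 0.0775, on opposite sides of both mock arrays.

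Among the drug efflux pumps, *ABCB1*, or P-glycoprotein, had signals of 0.108 and 0.0755 in the mock samples against 0.0672 and 0.0792 in the *SOX2* knockdown samples. S/N was over 3 on mock replicate 1 and *SOX2* knockdown replicate 2 alone, so no fold change is given. *ABCC1*, the multidrug resistance-associated protein MRP1, had signals of 0.307 and 0.457 in the mock samples against 0.365 and 0.325 in the *SOX2* knockdown samples. Both knockdown signals lay between the mock signals. The log2 change was -0.12 (SE 0.23, limma adjusted p = 0.883), with a 95% interval from -0.75 to 0.50, and it was 0.16 without mock replicate 2.

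*ABCG2*, the breast cancer resistance protein, had signals of 0.0748 and 0.105 in the mock samples against 0.0758 and 0.121 in the *SOX2* knockdown samples. In each group replicate 2 was the brighter array, and the groups overlapped. The log2 change was 0.11 (SE 0.30, limma adjusted p = 0.925), with a 95% interval from -0.70 to 0.93. The sign was the opposite without mock replicate 1, at -0.13, and without *SOX2* knockdown replicate 2, at -0.22. With normexp on the raw reading the ratio of *ABCG2* was 2.12, against 1.10 here. The intervals of both pumps hold changes in either direction.

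The remaining members of subfamily C ranged from -0.19 to 0.22 in log2 change. *ABCC3*, or MRP3, which exports glucuronide conjugates, was the highest of them and was read by 2 probes that disagreed. The brighter probe had 6.71 and 7.59 in the mock samples against 7.44 and 7.71 in the *SOX2* knockdown samples. The dimmer probe had 0.519 and 0.673 in the mock samples against 1.43 and 1.43 in the *SOX2* knockdown samples. The groups overlapped on the brighter probe, with a ratio of 1.06, and did not overlap on the dimmer one, with a ratio of 2.41 at S/N over 30 on all arrays. Their mean gave a ratio of 1.16 and a log2 change of 0.22 (SE 0.14, limma adjusted p = 0.509). The probes were looked at singly after their values were seen, and which transcripts each probe reads was not checked.

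*ABCC8*, the sulphonylurea receptor of the ATP-sensitive potassium channel, had signals of 4.91 and 3.13 in the mock samples against 2.92 and 4.07 in the *SOX2* knockdown samples. The higher readings were those of mock replicate 1 and *SOX2* knockdown replicate 2, and the groups overlapped. *ABCC4*, *ABCC5* and *ABCC10*, which export cyclic nucleotides, nucleotide analogues or conjugates, had log2 changes of -0.13, -0.04 and -0.04. *ABCC6*, which has near-identical pseudogene copies, passed S/N 3 on mock replicate 1 and *SOX2* knockdown replicate 2 alone.

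**Figure D4:**
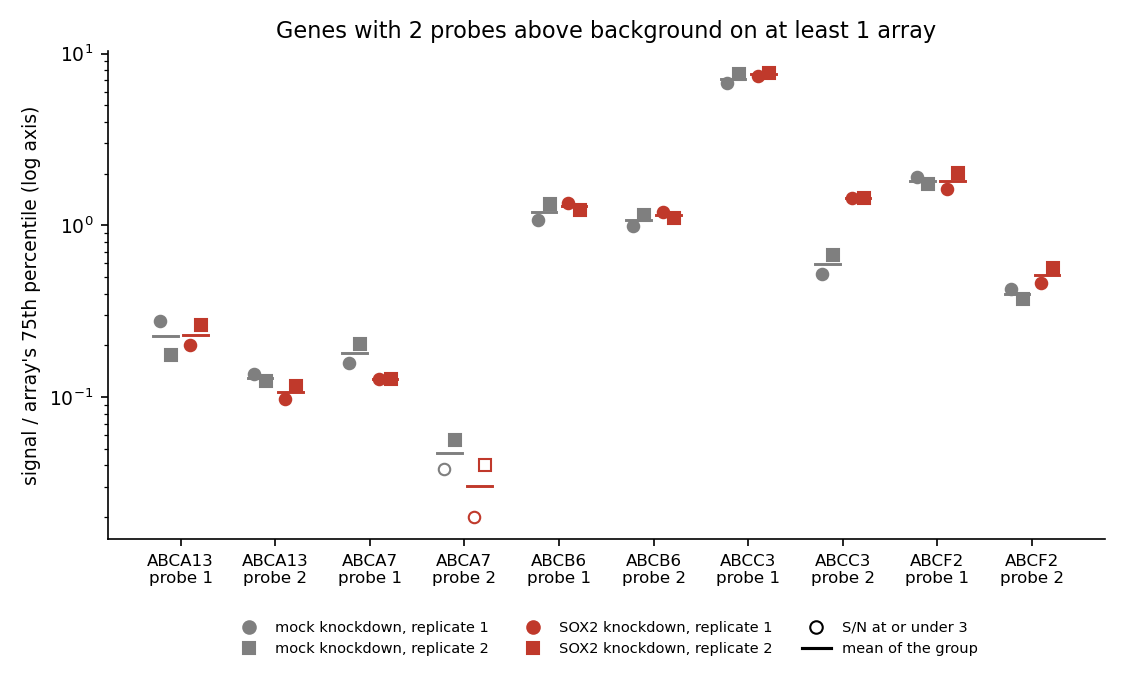
Scaled signal of each probe on each array (y axis, logarithmic) for the ABC genes with 2 probes above background on at least 1 array, mock knockdown in grey and SOX2 knockdown in red, with bars at the group means and open symbols where S/N was 3 or less. The probes of ABCB6 show the same pattern, whereas probe 2 of ABCC3 is 2.41-fold higher after knockdown and probe 1 is not separated.

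In the mitochondrial and lysosomal part of subfamily B, *ABCB10* stood lowest. This inner-membrane protein of mitochondria, known from haem synthesis in erythroid cells, had signals of 0.372 and 0.347 in the mock samples against 0.280 and 0.265 in the *SOX2* knockdown samples. The groups did not overlap, and each was tight. The signal was 1.32-fold lower, with a log2 change of -0.40 (SE 0.13, limma unadjusted p = 0.0303, adjusted p = 0.237), and without any 1 array the unadjusted p was between 0.0583 and 0.189. *ABCB10* has pseudogene copies, which its probe may also read. *ABCB8*, another mitochondrial member, had a log2 change of -0.23. *ABCB6*, a porphyrin transporter, was read by 2 probes with ratios of 1.07 and 1.08, the second also annotated to its neighbour *ATG9A*. *ABCB9*, a lysosomal peptide transporter, had signals of 1.95 and 2.53 in the mock samples against 2.71 and 2.67 in the *SOX2* knockdown samples, which did not overlap, with a log2 change of 0.28 (limma adjusted p = 0.514).

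Among the members without membrane-spanning parts no adjusted limma p was under 0.05. *ABCE1*, which splits ribosomes after termination, had signals of 1.52 and 1.62 in the mock samples against 1.84 and 1.69 in the *SOX2* knockdown samples. These are means of its named probe and a probe of the same gene ID without a symbol. The named probe alone had a ratio of 1.10. The groups did not overlap. The log2 change was 0.17 (SE 0.13, limma adjusted p = 0.620), with a 95% interval from -0.18 to 0.51. *ABCF1*, *ABCF2* and *ABCF3*, which act in translation, had log2 changes of 0.12, 0.07 and 0.13, and the groups did not overlap for *ABCF1* and *ABCF3*. For *ABCF2* the group means of the brighter probe were both 1.82, and the dimmer probe had a ratio of 1.29.

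In subfamily D, the peroxisomal fatty acid transporter *ABCD3* had a ratio of 0.956 and *ABCD4*, which serves lysosomal cobalamin transport, had 1.02, both with overlapping groups.

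Sterol exporters of subfamily G showed no separation of the groups. *ABCG1*, which moves cholesterol to high-density lipoprotein, had signals of 0.0732 and 0.0909 in the mock samples against 0.0587 and 0.0759 in the *SOX2* knockdown samples. The arrays overlapped, and S/N on *SOX2* knockdown replicate 1 was 1.88. The log2 change was -0.29 (SE 0.20, limma adjusted p = 0.568), with a 95% interval from -0.83 to 0.25. *ABCG4*, the related sterol exporter of brain, had 0.235 and 0.122 in the mock samples against 0.147 and 0.200 in the *SOX2* knockdown samples. *ABCG8*, the partner of *ABCG5* in plant sterol export, had 0.240 and 0.129 in the mock samples against 0.147 and 0.271 in the *SOX2* knockdown samples. In both, as in *ABCC8*, mock replicate 1 and *SOX2* knockdown replicate 2 were the higher arrays, and the replicates of a group differed more than the group means.

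A list of 50 partners and regulators of these transporters was read beside the members. All 50 were on the arrays and 48 were compared, of which 21 were higher and 27 lower, with a median log2 change of -0.01. Of all features, 50.1% were lower. An unadjusted limma p under 0.05 was reached by 7 with higher and 4 with lower signals (the shares over all features being those given for the members), and none passed adjustment. Over 1.5-fold, 5 of the 48 were higher and 0 lower, against 5.06% and 4.83% of all features. *TAP1* and *TAP2*, ABC peptide transporters of antigen presentation that carry older names, had log2 changes of -0.01 and -0.08, and *CFTR* was near background.

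**Figure D5:**
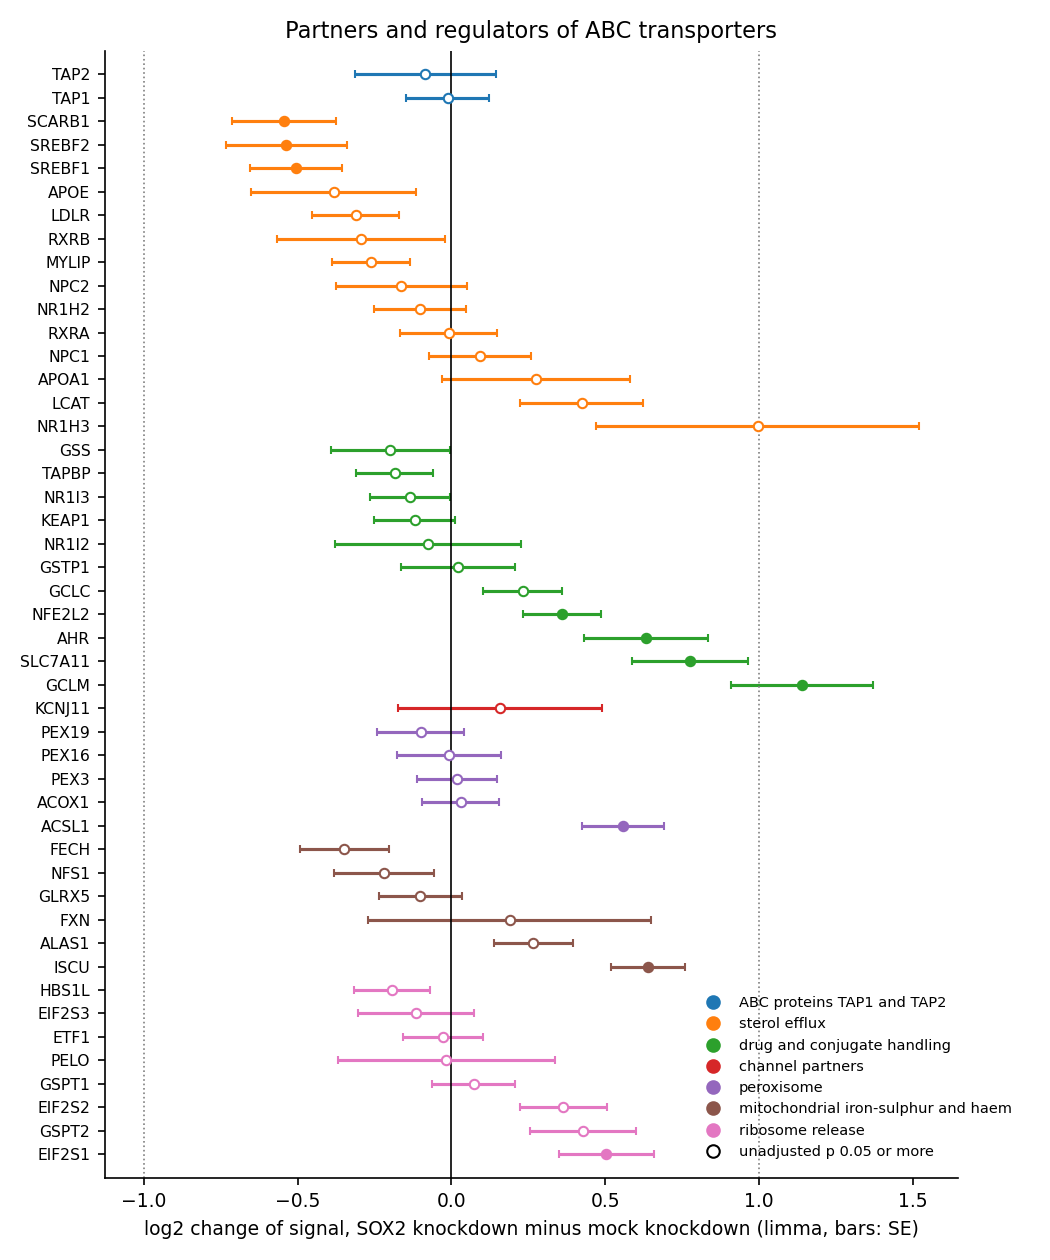
Log2 change of 47 of the 48 partner and regulator genes compared (x axis, SOX2 knockdown minus mock knockdown, points from limma with SE as bars), grouped by role, with filled points where the unadjusted p was under 0.05 and dotted lines at 2-fold. GCLM lies past the line at 1.14, NR1H3 lies beside it with a wide bar, and SCARB1, SREBF2 and SREBF1 lie from -0.54 to -0.50.

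In the set of sterol efflux, 10 of 14 genes were lower, against 50.1% of all features, and 4 higher. The median log2 change was -0.21. An unadjusted p under 0.05 was reached by 3 of the lower genes, against 9.14% of all features, named after their values were seen. They were the sterol-responsive factors *SREBF1* (log2 change -0.50, limma adjusted p = 0.219) and *SREBF2* (-0.54, limma adjusted p = 0.285) and the lipoprotein receptor *SCARB1* (-0.54, limma adjusted p = 0.231). *NR1H3*, the oxysterol receptor LXR alpha that drives *ABCA1*, had signals of 0.0827 and 0.234 in the mock samples against 0.253 and 0.304 in the *SOX2* knockdown samples. The groups did not overlap, but the mock arrays differed widely, and the 1.76-fold higher mean had an unadjusted limma p of 0.124 (adjusted p = 0.438). In the paper, *NR1H3* is among the up-regulated genes for which RT-PCR was reported to bear out the arrays, which was not examined here.

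In the set of drug and conjugate handling, 6 of 11 genes were higher and 5 lower, where 50.1% of all features were lower. The 5 include *TAPBP* (log2 change -0.18, limma adjusted p = 0.559), counted in this set although it is a partner of *TAP1* and *TAP2* in antigen presentation. The median log2 change was 0.02. An unadjusted p under 0.05 was reached by 4 genes, all with higher signals, against 8.1% of all features. *GCLM*, the modifier subunit of the enzyme that makes the glutathione precursor, had signals of 2.12 and 3.18 in the mock samples against 5.56 and 5.91 in the *SOX2* knockdown samples. The groups were well apart, with a ratio of 2.16 and a log2 change of 1.14 (SE 0.23, limma adjusted p = 0.135). *SLC7A11*, which imports cystine for glutathione, had 0.108 and 0.108 in the mock samples against 0.159 and 0.215 in the *SOX2* knockdown samples, a ratio of 1.73 (limma adjusted p = 0.168). *AHR*, a receptor for aromatic compounds, had 3.55 and 2.67 in the mock samples against 4.38 and 5.21 in the *SOX2* knockdown samples, a ratio of 1.54 (limma adjusted p = 0.236). *NFE2L2*, the oxidative stress factor, had a ratio of 1.28 (limma adjusted p = 0.268).

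*ISCU*, the scaffold on which mitochondrial iron-sulphur clusters are built, had 1.74 and 1.78 in the mock samples against 2.72 and 2.76 in the *SOX2* knockdown samples. The replicates of each group were nearly equal and the groups were apart, with a ratio of 1.56 (limma adjusted p = 0.125). *ACSL1*, of the peroxisome set, had a ratio of 1.47 (limma unadjusted p = 0.0112, adjusted p = 0.166). *EIF2S1*, of the ribosome release set, had 1.41 (limma unadjusted p = 0.0263, adjusted p = 0.226). In both the groups did not overlap. In these sets 2 of 5 and 5 of 9 genes were lower, against 50.1% of all features.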

How the data were processed

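Applied Biosystems arrays of 4 LN229 samples were analysed, grouped by the source names of the labels and numbered by their titles. The deposited scanner files give intensity per feature, with its error, and, per the file headers, S/N, used as a score of detection. A second deposited table holds the ratio of each signal to the median of its probe, used as an alternative. The software version is not given in the sources used here. Control features and 210 probes were dropped, the latter because the flag reached 5000 on some array. Probes of 1 Celera gene ID and symbol were averaged, since 662 gene IDs hold several symbols, whereas the study averaged by gene ID. A probe without a symbol was averaged with the named probes where its gene ID held a single symbol. Each array was divided by its 75th percentile, floored at 0.01 and log2-transformed. Features with S/N over 3 on both arrays of a group were tested with limma 3.58.1 (R 4.3.3, lmFit and eBayes, two-sided, Benjamini-Hochberg), after a test on simulated data. The 2-fold cutoff of replicate means is the study's. Named were ABC genes past 1.5-fold or an unadjusted p of 0.05, those dim in 1 group, and 6 transporters of drugs, sterols or ribosomes. Partner genes were named past 1.5-fold or, after their values were seen, at an unadjusted limma p under 0.05, apart from genes not reported. *TAP1*, *TAP2*, *CFTR* and *TAPBP* were named besides. The members and lists were chosen with earlier results of these data known. Symbols were matched to RefSeq, 46 directly and 1 by a synonym. The array's probe sequences were not used here. The values of 3 genes are counted in the totals and not reported here. Alternatives covered scaling, the series table, background correction, floors, S/N filters, averaging, variance models and leaving out arrays.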

Additional observations from a re-analysis of the deposited data

How the results depend on the processing

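With 2 arrays per group, and with most changes under 2-fold, calls depended on settings. The count of ABC genes over 2-fold was 1 (*ABCA12*). It was 0 with a floor of 0.05, with S/N over 3 on all 4 arrays and at a cutoff of 3-fold, 2 with normexp (*ABCA8* and *ABCG2* in place of *ABCA12*), and 5 at 1.5-fold. Leaving out 1 array gave 0 to 3, with 3 without mock replicate 1 (*ABCA2*, *ABCA3* and *ABCA12*), 2 without *SOX2* knockdown replicate 2 (*ABCA6* and *ABCA12*) and 0 without either of the others. No ABC gene passed an adjusted p of 0.05, except 3 (*ABCA2*, *ABCA6* and *ABCA12*) with median scaling, no further scaling or the series table. There limma gave each of these genes one common SE, and 666 to 699 features passed over the whole array. *SOX2* then passed too, with a log2 change of -1.73, -1.72 and -1.72. The count at an unadjusted p under 0.05 was 7, 3 with normexp (*ABCA2*, *ABCA8* and *ABCB8*) and 4 to 6 without 1 array, with 4 without *SOX2* knockdown replicate 2.

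The median log2 change of the ABC genes was -0.04. It was -0.0762 with median scaling, -0.0639 with no further scaling, -0.0602 with the series table, -0.0660 without the S/N filter, -0.0557 with normexp, -0.0498 with quantile normalization and -0.131 to 0.0171 without 1 array. Partner genes over 2-fold numbered 1, 5 at 1.5-fold, 0 at 3-fold and 0 to 2 without 1 array, with 0 without mock replicate 1 and 2 without mock replicate 2. The log2 change turned for *ABCC1* without mock replicate 2 (0.16, in a range of -0.41 to 0.16 without 1 array) and for *ABCG2* without mock replicate 1 (-0.13) and without *SOX2* knockdown replicate 2 (-0.22, in a range of -0.22 to 0.45). Subfamily A was lower in 6 to 8 of its genes compared under every alternative with the S/N filter.

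Same-numbered arrays deviated in opposite directions (Pearson r = -0.498 across 18934 features). Mock replicate 1 thus tended to deviate with *SOX2* knockdown replicate 2, and mock replicate 2 with *SOX2* knockdown replicate 1. The cause of this pattern was not tested. With the replicate number as a block the count at an unadjusted p under 0.05 was 5 and no adjusted p was under 0.05. With the crossed pairing, chosen after seeing the data, the counts were 6 and 0. No slide held more than 1 array, so a slide block was not run.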
